A study of Mus musculus with 16 samples.

Results

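The tRNAs that carry arginine (except those with the anticodon TCT), glutamine, proline, phenylalanine, tryptophan and tyrosine were examined in mouse prefrontal cortex. Entries were picked out by amino acid and anticodon in their names, a set that was put together with earlier results of these data known, and came to 84 of the 18488 ncRNA entries in the table and 84 of its 448 tRNA entries. They cover 13 of 53 tRNA anticodons. Among them, 11 had the same value as another entry of the table in every library. One of the 11, Pro-AGG-2-1, shared its values only with leucine entries outside the set. The 84 entries held 79 distinct sets of values. Small RNA libraries came from 8 PS19 mice and 8 wild-type (WT) mice of about 9.6 months. PS19 mice, labelled PS19+/-, are heterozygous for a transgene in which the mouse Prnp promoter drives human MAPT, the tau gene, with the mutation P301S. The WT mice were littermates without the transgene, both groups were (C57BL/6xC3H)F1 with equal numbers of males and females, and no treatment other than terminal anesthesia and perfusion was described. Which library came from which sex was not given in the sources used here. The labels name brain as the tissue.

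A tRNA is transcribed by RNA polymerase III, trimmed, given a 3′ CCA end and charged with its amino acid, and its anticodon then reads the matching codon on the ribosome. Mouse cells hold several gene copies for each anticodon. Copies that share an anticodon but differ elsewhere are called isodecoders, and an entry such as Tyr-GTA-6-1 names the amino acid, the anticodon, the isodecoder and the gene copy. tRNAs are also cut at the anticodon loop or in the arms into shorter fragments, and small RNA libraries hold fragments as well as whole molecules. The values below cannot tell fragments from whole tRNA, and in bulk tissue fewer cells of a type cannot be told apart from less RNA per cell.

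Gene positions and sequence were taken from RefSeq and GENCODE (GRCm38), which use other gene names than the table, so that no entry of the table could be tied to one gene. RefSeq lists 76 genes with these anticodons, 25 of them on chromosome 13. Its 10 tyrosine genes are 86 to 93 bases long, against 72 to 73 bases for every other anticodon here, and tyrosine tRNA genes are known to carry an intron that the tRNA splicing endonuclease removes. Of the tyrosine genes, 6 lie within 41.5 kb of chromosome 13, between positions 23425646 and 23467165. Whole gene sequence was at hand for a gene each of the arginine anticodon TCG and the proline anticodon TGG. The first is shown because Arg-TCG was the arginine anticodon with all of its entries lower in PS19. The second is shown because some Pro-TGG entries could not be separated from other proline entries. Both are on the + strand of the genome and printed 5′ to 3′ without the CCA end, with the anticodon in capitals.
n-TRtcg5, chr7:79466419-79466491: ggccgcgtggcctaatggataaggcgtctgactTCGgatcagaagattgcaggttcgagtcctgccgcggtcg
n-TPtgg2, chr11:67291139-67291210: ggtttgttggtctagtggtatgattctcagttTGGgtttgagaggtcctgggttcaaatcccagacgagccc
The anticodon fills bases 34 to 36 of the arginine gene, which is 73 bases long, and bases 33 to 35 of the proline gene, which is 72 bases long. The arginine gene was read from the RefSeq window around the start of Polg and the proline gene from a GENCODE transcript of Myh8, both in GRCm38, and which entry of the table holds their reads is not known.

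Recovered reads summed over all entries of the table came to 13.2 to 23.1 M per library. This total counts reads shared by several entries more than once and is not the sequencing depth. The brain miRNA miR-124-3p was present in every library, from 5333 to 20737 normalized reads, and so were miR-9-5p and miR-128-3p at higher levels. Of the markers of other cells, the red blood cell miR-451a lay between 1.90 and 40.1 and miR-144-3p between 0 and 2.80, the myeloid miR-223-3p between 0.949 and 8.97 and miR-142a-3p between 0 and 11.8, and the oligodendrocyte miR-219a-5p between 0 and 10.7 and miR-338-3p between 26.9 and 114. Muscle miR-1a-3p ranged from 1791 to 13873 and miR-133a-3p from 1.90 to 50.6, liver miR-122-5p from 132 to 654, and choroid plexus miR-204-5p from 543 to 6592 and miR-211-5p from 1.28 to 32.1. None of the 10 markers that passed the filter on low values had an unadjusted limma p under 0.05 between genotypes. Both myeloid markers, miR-219a-5p and miR-144-3p were too low to test. Myeloid miR-142a-3p averaged 3.75 ± 3.63 in PS19 and 1.02 ± 1.41 in WT (SD, n = 8 each). The other, miR-223-3p, averaged 2.62 ± 1.35 in PS19 and 4.71 ± 2.82 in WT. The part of the markers in the results was not tested. The code given to each library in the labels began with G in all 8 PS19 and 2 WT libraries (replicates 2 and 4), with F in 4 WT and with A in 2 WT. The meaning of the letter is not given in the labels, and it coincides with genotype except in the 2 WT libraries with G.

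**Figure D1:**
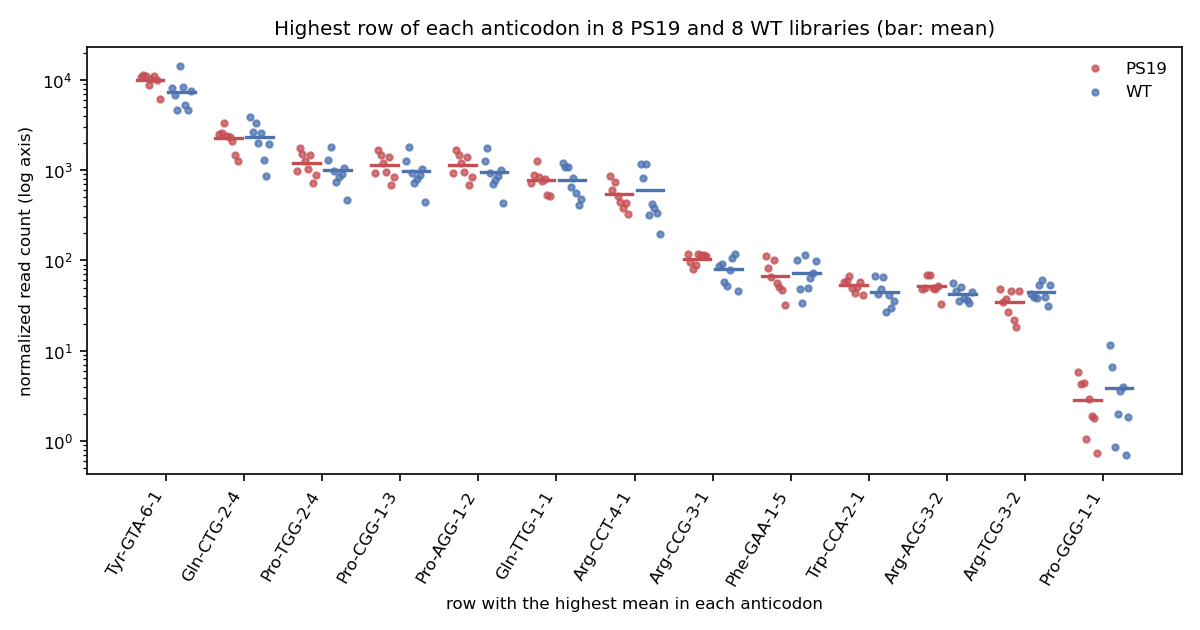
Normalized read count on a log axis of the entry with the highest mean in each of the 13 anticodons; each point is a library (8 PS19, 8 WT) and each bar a group mean. Tyr-GTA-6-1 lies above the others at 4649 to 14087, Pro-GGG-1-1 lies at the bottom at 0.707 to 11.5, and the PS19 and WT points overlap in every anticodon.

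The distinct entries together held a small share of the tRNA signal, 0.932% ± 0.168 in PS19 and 0.878% ± 0.246 in WT (mean ± SD over 8 libraries each). In PS19 the share lay between 0.685% and 1.14% with a median of 0.964%, and in WT between 0.424% and 1.19% with a median of 0.907%, so that the WT range enclosed the PS19 range. Levels are normalized read counts and were not divided by length. Since gene copies share values, sums over entries count reads more than once, and the level of an anticodon is given by its highest entry.

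Levels spread over more than 3 orders of magnitude, and 1 tyrosine entry stood above the rest. Tyr-GTA-6-1 averaged 8668 normalized reads over the 16 libraries, which placed tyrosine 6th of the 53 tRNA anticodons by highest entry. Gln-CTG-2-4, for the glutamine codon CAG, followed at 2276. Tyr-GTA-6-1 was the higher of the pair in 16 of 16 libraries. The highest proline entries were Pro-TGG-2-4 at 1109, Pro-CGG-1-3 at 1061 and Pro-AGG-1-2 at 1052 normalized reads. Gln-CTG-2-4 exceeded Pro-TGG-2-4 in 15 of 16 libraries. Gln-TTG-1-1 at 787 and Arg-CCT-4-1 at 569 came next.

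Below Arg-CCT-4-1 levels fell 6.17-fold to Arg-CCG-3-1, at 92.2 normalized reads, a step present in 16 of 16 libraries. Phe-GAA-1-5 averaged 70.3, Trp-CCA-2-1 48.9, Arg-ACG-3-2 47.5 and Arg-TCG-3-2 39.8. Neighbours in this low range did not keep a fixed order: Trp-CCA-2-1 exceeded Arg-ACG-3-2 in 9 libraries, and Arg-ACG-3-2 exceeded Arg-TCG-3-2 in 9, with 1 tied. Pro-GGG-1-1, whose anticodon has no gene in the RefSeq list, averaged 3.38 normalized reads and rested on 1 to 9 reads per library. Thus the arginine decoders alone ran from 39.8 to 569. Arg-CCT-4-1, the highest of them, reads AGG, and Arg-ACG-3-2 reads CGU, CGC and CGA after conversion of the first anticodon base to inosine.

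Many entries could not be separated from each other. Entries were put in 1 group where log2 values over the 16 libraries had a Pearson r of 0.99 or more and means lay within 2-fold. In this way the 75 distinct entries that passed the filter on low values fell into 37 groups, of which 13 held 2 or more entries (51 entries in all) and 24 held 1. The largest group held 10 proline entries of 3 anticodons, AGG, CGG and TGG. Within each library Pro-TGG-2-4 was 1.03 to 1.09 times Pro-AGG-1-2. The highest entries of these 3 proline anticodons are thus close to 1 measurement. Pro-TGG-1-1, Pro-TGG-4-1, Pro-AGG-2-1 and Pro-AGG-3-1 were each separate. A group of 9 glutamine entries joined the isodecoders CTG-1, CTG-2, CTG-3 and CTG-6. Pro-AGG-2-1, at 117 normalized reads, had the same value in every library as Leu-TAA-5-1, Leu-TAA-5-2 and Leu-TAA-5-3, so that these values cannot be assigned to proline or to leucine. No entry followed a row outside the tRNAs at an r of 0.99, the highest being 0.956.

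Genotypes were compared with limma on log2(value + 1) over all 6024 entries with a mean of at least 5, with Benjamini-Hochberg adjustment. Of the 75 distinct tested entries, 1 had an unadjusted p under 0.05, Tyr-GTA-6-1, which was higher in PS19. That is 1.33%, against 1.86% of all tested entries higher in PS19 (112 of 6024) and 2.14% lower (129). No entry of this set passed at an adjusted p under 0.05, where 0.00% of all tested entries passed (limma, lowest adjusted p of the set 0.9998 and of all entries 0.409). Neither DESeq2 nor edgeR on recovered reads gave any of the 75 an unadjusted p under 0.05, against 4.70% and 4.75% of all tested entries. The distinct entries that were too low to test numbered 4, namely Pro-GGG-1-1, Gln-TTG-4-1 at a mean of 1.78, Pro-TGG-3-1 at 1.78 and Pro-TGG-5-1 at 0.338 normalized reads.

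**Figure D2:**
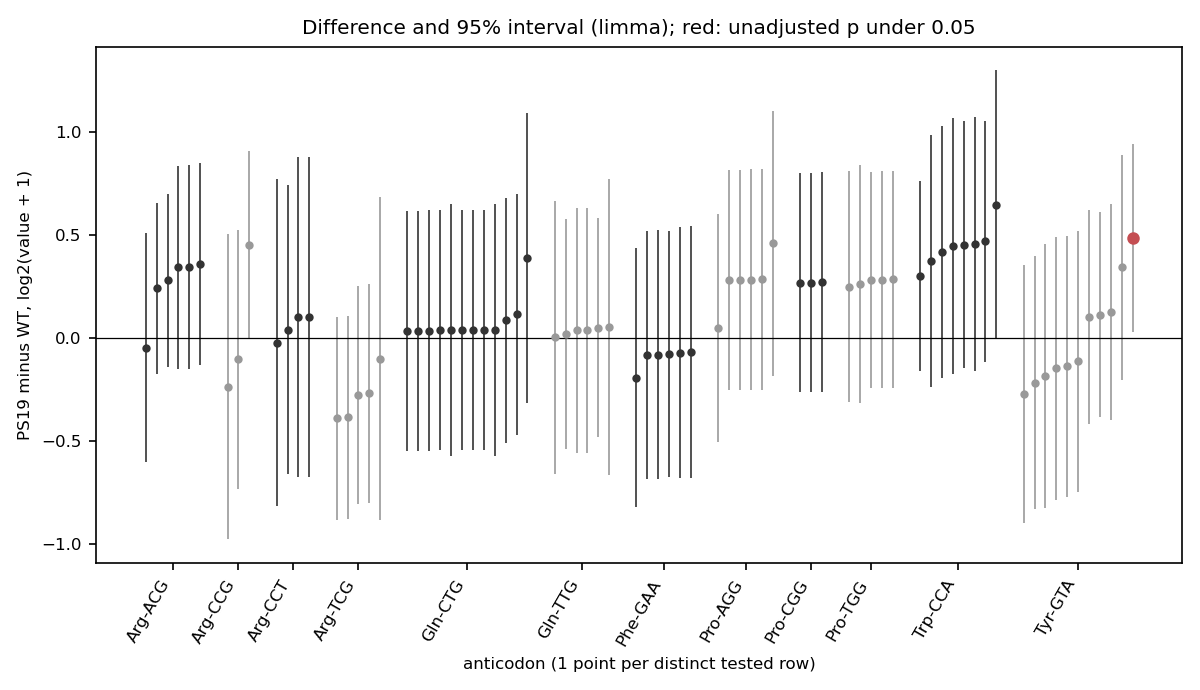
PS19 minus WT on the log2(value + 1) scale for the 75 distinct tested entries, grouped by anticodon and sorted within it; points are limma estimates, lines 95% intervals, and the red point is the entry with an unadjusted p under 0.05. Only the interval of Tyr-GTA-6-1 does not reach 0; all 5 Arg-TCG entries and all 6 Phe-GAA entries lie below 0 and all 8 Trp-CCA entries above it.

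At any p, the log2 difference of 54 of the 75 entries was above 0 and of 21 below it, with a median of 0.05, against -0.02 over all tested entries, 46.8% of which were above 0. The direction depended on the scale: by group means of the normalized reads, 36 entries were higher and 39 lower in PS19, against 47.1% higher of all tested entries. The 18 entries that turned were 9 Gln-CTG, 5 Gln-TTG, 3 Arg-CCT and 1 Pro-AGG entries. Counted once per group of inseparable entries, 26 were higher and 11 lower on the log2 scale, and 20 higher and 17 lower by group means. Differences ran from -0.39 to 0.65 with standard errors of 0.20 to 0.38, and the 95% interval reached 0.58 to either side of the estimate in the median entry, so that the design could not show differences much smaller than this. The PS19 and WT ranges overlapped in all 75 entries, and over all tested entries they did not overlap in 0.0996% (6 of 6024). The other tRNAs had a median log2 difference of 0.05, and 12 of their 275 distinct tested entries were higher and 1 lower in PS19 at an unadjusted p under 0.05 (4.73%). Those 13 carried leucine (9 higher), histidine (3 higher) and lysine (1 lower). The table listed 0 of 8 other RNA polymerase III transcripts that were looked for (Rpph1, Rmrp, Rn7sk, Vaultrc5, Rny1, Rny3, Rnu6 and Rnu6atac).

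Tyrosine tRNA gave the lowest limma p of the set, whereas by the exact permutation test Arg-CCG-3-1 had a lower p (0.0322). In PS19, Tyr-GTA-6-1 read 10765, 11288, 11101, 8693, 10180, 11150, 9942 and 6196 normalized reads in replicates 1 to 8. In WT it read 8031, 6835, 4662, 14087, 8331, 5331, 4649 and 7452. All PS19 libraries except replicate 8 lay above all WT libraries except replicate 4, whose value was the highest of the 16. The mean was 9914 ± 1729 in PS19 and 7422 ± 3062 in WT (SD, n = 8 each), a log2 difference of 0.49 ± 0.22 (SE), or 1.40-fold (limma, p = 0.0380, adjusted p = 0.9998; two-sided exact permutation test, p = 0.0420). The coefficient of variation was 17.4% in PS19 and 41.3% in WT.

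The Tyr-GTA-6-1 difference moved with single libraries, WT replicate 4 above all. WT libraries with the letter G averaged 10461 (6835 and 14087), those with F 6585 and those with A 6057. With only G libraries (8 PS19, 2 WT), the log2 difference was -0.008 (two-sided exact permutation test over 45 assignments, p = 1), and genotype and letter cannot be told apart in the other WT libraries. This value turned on WT replicate 4, the highest of the 16 libraries. The other WT library with G, replicate 2, read 6835, within the range of the WT libraries with F and below 7 of 8 PS19 libraries. Against WT replicate 2 alone the log2 difference of the PS19 libraries was 0.51, and against WT replicate 4 alone it was -0.53, values with no test. Leaving out WT replicate 4 gave 0.63 (limma, unadjusted p = 0.00410; exact permutation test, p = 0.00357). Leaving out any of 10 other libraries in turn put the unadjusted p between 0.0514 and 0.0854 (limma): PS19 replicates 1, 2, 3, 5, 6 and 7 and WT replicates 2, 3, 6 and 7.

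**Figure D3:**
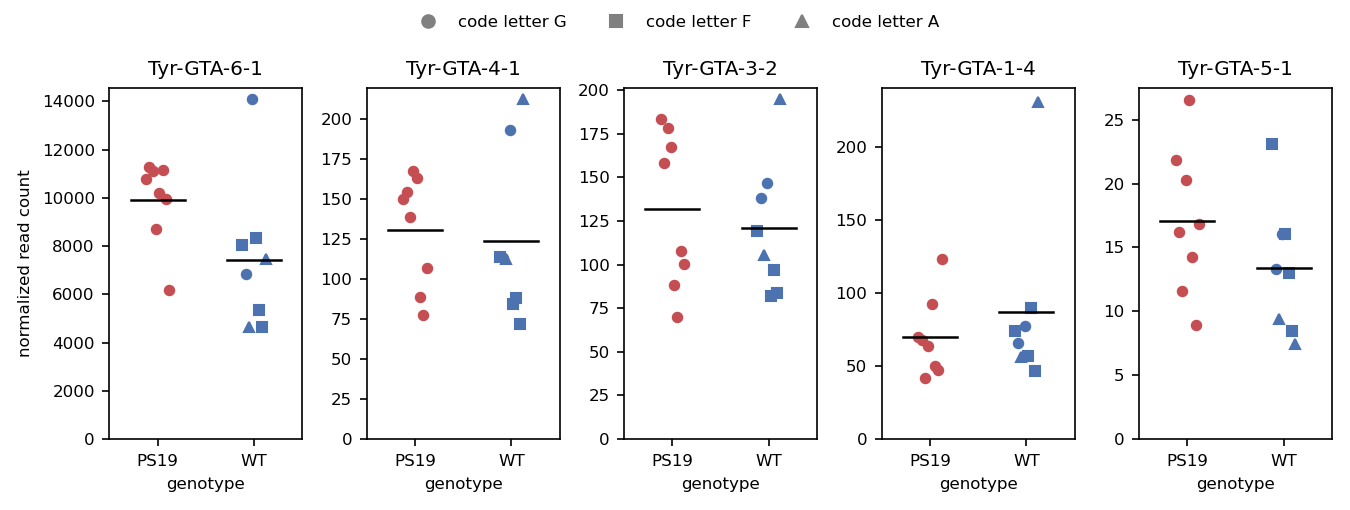
Normalized read count of 5 Tyr-GTA entries in 8 PS19 and 8 WT libraries, each panel with its own axis from 0; the symbol gives the first letter of the library code and the bar the group mean. Tyr-GTA-6-1 is highest in WT replicate 4 (a G library), whereas Tyr-GTA-1-4 is highest in WT replicate 8 (an A library).

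The other 10 tyrosine entries were far lower, from 15.2 to 127 normalized reads on average. Their r with Tyr-GTA-6-1 over the 16 libraries ran from -0.12 to 0.47. Of the summed tyrosine entries, Tyr-GTA-6-1 held 92.1% ± 3.05 in PS19 and 89.0% ± 4.68 in WT (SD over 8 libraries each). This share ranged from 79.0% to 95.3% over the 16 libraries. Tyr-GTA-4-1, Tyr-GTA-3-2, Tyr-GTA-1-4 and Tyr-GTA-5-1 were chosen after their values were seen, to stand for the other isodecoders. The r was 0.47 with Tyr-GTA-4-1, 0.43 with Tyr-GTA-5-1, 0.33 with Tyr-GTA-3-2 and -0.12 with Tyr-GTA-1-4. Tyr-GTA-5-1, the lowest of the entries, read 8.92 to 26.5 in PS19 with a median of 16.5, and 7.46 to 23.1 in WT with a median of 13.2, a log2 difference of 0.34 ± 0.26 (SE; exact permutation test, p = 0.184). Tyr-GTA-1-4 read 42.0 to 124 in PS19 with a median of 66.1, and 46.7 to 231 in WT with a median of 70.0, and its highest value was in WT replicate 8. Summed by anticodon (where 3.90% of the 5668 tested rows had an unadjusted p under 0.05 and 0 of the 12 sums here did), the tyrosine entries differed by 0.44 ± 0.21 (SE) on the log2 scale (limma, p = 0.0511, adjusted p = 0.9998; exact permutation test, p = 0.0499). This sum follows Tyr-GTA-6-1, and among its 11 entries 5 were higher and 6 lower in PS19.

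The codon UGG is read by Trp-CCA, the tRNA for tryptophan. Its 8 entries, in 5 groups of inseparable entries, were all higher in PS19 at any p, and none had an unadjusted p under 0.05. Trp-CCA-1-1 read 19.7 to 72.3 in PS19 with a median of 32.5, and 10.0 to 35.2 in WT with a median of 27.0, on 10 to 59 reads per library. In PS19, 3 libraries lay above the WT range, and in WT, 3 lay below the PS19 range. The log2 difference of 0.65 ± 0.31 (SE), the highest of the set, had a limma p of 0.0518 (adjusted p = 0.9998) and an exact two-sided permutation p of 0.0712. WT libraries with the letter G both read 35.2, those with F averaged 20.6 and those with A 20.6, against a PS19 mean of 37.5. The PS19 libraries, all with G, spread on both sides of these WT libraries, and 5 of the 8 lay below both. The entry with the highest mean, Trp-CCA-2-1, read 41.0 to 66.5 in PS19 with a median of 54.2, and 26.7 to 67.9 in WT with a median of 41.9. It differed by 0.30 ± 0.22 (SE; exact permutation test, p = 0.130). The tryptophan sum differed by 0.43 ± 0.26 (SE; limma, p = 0.107; exact permutation test, p = 0.112). With G libraries only, the tryptophan sum differed by -0.12.

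Phe-GAA, the phenylalanine tRNA, lay slightly the other way. Its 6 distinct entries, of 7 listed, were all lower in PS19 at any p, but 5 of them could not be separated, so that they make up 2 groups. Phe-GAA-1-5 read 32.2 to 111 in PS19 with a median of 60.6, and 33.4 to 114 in WT with a median of 68.1. The ranges nearly coincided, and the log2 difference was -0.08 ± 0.29 (SE; exact permutation test, p = 0.779), with a 95% interval from -0.69 to 0.52. The sum gave -0.09 ± 0.29 (exact permutation test, p = 0.762). The sums of the 3 aromatic amino acids thus differed in sign over all libraries, but not in every setting. With G libraries only, all 3 were below 0 (-0.014 for tyrosine, -0.12 for tryptophan and -0.24 for phenylalanine, the last between 0.36 against WT replicate 2 alone and -0.84 against WT replicate 4 alone), and the phenylalanine sum was above 0, like the others, without PS19 replicate 8 (0.053) or without WT replicate 4 (0.017). Over the 16 libraries Tyr-GTA-6-1 had an r of 0.59 with Trp-CCA-2-1 and of 0.44 with Phe-GAA-1-5.

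The 4 arginine anticodons differed in sign. The anticodons ACG, CCG and TCG read CGN codons, and CCT reads AGG. Arg-CCG-3-1 read 79.6 to 118 in PS19 with a median of 113, and 45.7 to 117 in WT with a median of 81.7. In WT, 4 libraries lay below every PS19 library. The log2 difference was 0.45 ± 0.22 (SE), or 1.37-fold (limma, p = 0.0530, adjusted p = 0.9998; exact two-sided permutation test, p = 0.0322). WT libraries with the letter G averaged 72.3, those with F 97.0 and those with A 51.9, against 105 in PS19, so that here the G libraries were not the highest of the WT. With G libraries only, the log2 difference was 0.57 (exact permutation test over 45 assignments, p = 0.0667), between 0.17 against WT replicate 2 alone and 0.98 against WT replicate 4 alone. The other 2 Arg-CCG entries, at 15.3 and 13.2 on average, were lower in PS19 at any p, and the anticodon sum gave 0.29 ± 0.19 (SE; limma, p = 0.131; exact permutation test, p = 0.0232). The exact and the limma p of Arg-CCG thus lay on either side of 0.05, and neither is adjusted for the number of entries. With 1 library left out, the exact permutation p of Arg-CCG-3-1 ran from 0.00886 to 0.0608. It was over 0.05 without PS19 replicates 1, 5, 6, 7 or 8 or WT replicates 3, 4 or 8.

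Arg-TCG was the arginine anticodon in which all 5 entries, in 4 groups of inseparable entries, were lower in PS19 at any p. Arg-TCG-3-2 read 48.0, 34.6, 37.6, 26.7, 46.2, 21.8, 18.4 and 46.1 in PS19 replicates 1 to 8 and 42.3, 39.0, 38.5, 53.3, 60.6, 39.0, 31.1 and 53.2 in the WT replicates. In PS19, 5 libraries lay below the WT median of 40.7, and the groups overlapped. The log2 difference was -0.39 ± 0.24 (SE; limma, p = 0.115, adjusted p = 0.9998; exact permutation test, p = 0.0901), the lowest of the set. Arg-TCG-3-1, which had the same value in every library but WT replicate 4, gave -0.39 (exact permutation test, p = 0.0914), and Arg-TCG-2-1 gave -0.28 (exact permutation test, p = 0.276). WT means by letter were close, at 46.1 for G, 43.3 for F and 45.8 for A, and with G libraries only the log2 difference was -0.45 (exact permutation test over 45 assignments, p = 0.289), between -0.23 and -0.67 against these libraries singly. The anticodon sum gave -0.32 ± 0.22 (SE; exact permutation test, p = 0.113). The sum of Arg-ACG, with 5 of its 6 entries higher in PS19, gave 0.28 ± 0.21 (SE; exact permutation test, p = 0.138).

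The ratio of these arginine isoacceptors within a library was also recorded. Arg-TCG-3-2 over Arg-ACG-3-2 was 0.721 ± 0.367 (SD, n = 8) in PS19, from 0.352 to 1.40, and 1.06 ± 0.253 (SD, n = 8) in WT, from 0.750 to 1.58. Arg-CCT-4-1 varied 5.89-fold among libraries, from 198 to 1166, both of them in WT. Its median was 480 in PS19 and 400 in WT, whereas its mean was lower in PS19, at 538 against 600.2, and the WT coefficient of variation was 65.3% against 34.4% in PS19. The log2 difference was 0.04 ± 0.34 (SE; exact permutation test, p = 0.914), with a 95% interval from -0.66 to 0.74.

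No genotype difference was detected in the glutamine tRNAs. On the log2 scale all 12 Gln-CTG entries and all 6 tested Gln-TTG entries, in 3 groups of inseparable entries each, were slightly above 0 at any p, but the group mean was lower in PS19 in 9 of the Gln-CTG and 5 of the Gln-TTG entries. Gln-CTG-2-4 read 1258 to 3352 in PS19 with a median of 2339 and a mean of 2245, and 861 to 3860 in WT with a median of 2285 and a mean of 2308. The log2 difference was 0.04 ± 0.28 (SE; exact permutation test, p = 0.898), with a 95% interval from -0.54 to 0.62. Gln-TTG-1-1, which reads CAA, gave 516 to 1272 in PS19 with a median of 774 and 407 to 1213 in WT with a median of 729, a log2 difference of 0.05 ± 0.25 (SE; exact permutation test, p = 0.846). The pair varied together over libraries, with an r of 0.91, and Gln-CTG-2-4 was 2.86 ± 0.331 times Gln-TTG-1-1 in PS19 and 2.92 ± 0.638 times in WT (SD, n = 8 each). DESeq2 and edgeR turned the sign of both sums and of Arg-CCT, to between -0.17 and -0.035.

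On the log2 scale every tested proline entry (14 entries in 5 groups) was above 0 at any p, and by group means all were higher in PS19 except Pro-AGG-3-1, at 65.4 against 65.8. Pro-TGG-2-4 read 723 to 1744 in PS19 with a median of 1148, and 470 to 1827 in WT with a median of 941. The lowest and highest of all 16 libraries were both WT. The log2 difference was 0.28 ± 0.25 (SE; limma, p = 0.276, adjusted p = 0.9998; exact permutation test, p = 0.291), and the AGG, CGG and TGG sums gave 0.28, 0.27 and 0.28 (exact permutation tests, p = 0.304, 0.323 and 0.307). The highest entries of these anticodons are close to a single measurement, as shown above. Pro-AGG-2-1, which shares its values with the leucine entries, gave 0.46 (exact permutation test, p = 0.185). With G libraries only, the 3 sums differed by -0.045 to -0.032, and by -0.74 to -0.69 against WT replicate 2 alone and 0.61 to 0.66 against WT replicate 4 alone. Pro-GGG-1-1 read 0.731 to 5.82 in PS19 and 0.707 to 11.5 in WT and was not tested.

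**Figure D4:**
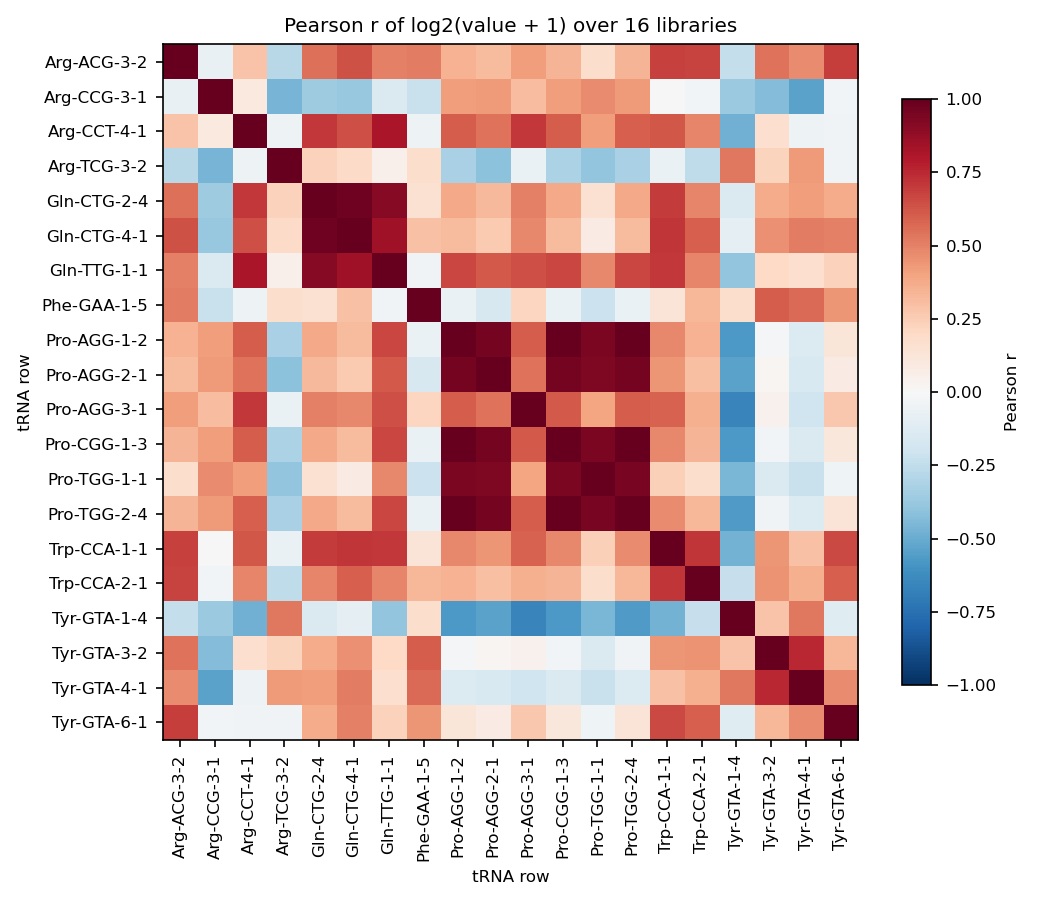
Pearson r of log2(value + 1) over the 16 libraries for each pair of 20 tRNA entries, on a color scale from -1 (blue) to 1 (red). Proline entries form a block with r of 0.936 or more except Pro-AGG-3-1, the glutamine entries form another, and Tyr-GTA-6-1 has r of 0.59 to 0.69 with tryptophan and Arg-ACG entries and near 0 with Arg-CCG, Arg-CCT and Arg-TCG.

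Across the amino acids, entries that share no anticodon also varied together to different degrees. Entries beyond the highest of each anticodon were picked for this comparison after their values were seen, to stand for further isodecoders. The points are libraries that share normalization and depth, so these r values over 16 libraries are descriptions. Arg-CCT-4-1 had an r of 0.82 with Gln-TTG-1-1 and 0.71 with Gln-CTG-2-4. Trp-CCA-1-1 had an r of 0.72 with Gln-CTG-4-1, and 0.69 with Arg-ACG-3-2. Such r values were not confined to tRNAs. The closest tested entry outside the tRNAs reached 0.93 for Arg-CCT-4-1, 0.96 for Gln-CTG-4-1 and 0.86 for Trp-CCA-1-1. Arg-TCG-3-2 had negative r values with Arg-CCG-3-1, at -0.46, and with Pro-TGG-2-4, at -0.32. Tyr-GTA-1-4 had an r of -0.57 with Pro-TGG-2-4. WT replicate 8 held both the highest Tyr-GTA-1-4 value, 231, and the lowest Pro-TGG-2-4 value, 470, so this r leans on that library.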

How the data were processed

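Libraries of small RNA, made from prefrontal cortex, numbered 8 for each genotype, with genotype taken from the sample labels. According to the methods of the study, single-end reads were aligned with STAR inside COMPSRA and genotypes compared with DESeq2; the processing notes of the submitters give STAR 2.5.3a and DESeq2 1.42.1 and list the build mm10 without a role. The annotation release and the rule for reads that match several copies were not given in the sources used here. The deposited table holds a normalized signal per library (read counts that the authors divided by a size factor), beside their fold changes, standard errors, mean signal, Wald scores and p-values, which were not used. Dividing by the smallest value above 0 gave whole reads (tolerance 0.01) in 100% of values; for WT replicates 4 and 6 this step is near 1 and so weaker evidence. 0 library columns were left out.

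Values were tested as log2(value + 1) with limma 3.58.1 (lmFit, eBayes with trend) in R 4.3.3, genotype as the only term, over entries with a mean of at least 5, adjusted by Benjamini-Hochberg over all tested entries. This scale understates changes of low entries. A second fit replaced all tRNA entries by 1 sum per anticodon over distinct entries (5668 tested, 3.90% at an unadjusted p under 0.05). Single entries and sums were also compared by two-sided exact permutation over 12870 assignments, which can give a p of 0.0001554 at the least. Named entries are the highest of each anticodon, every entry with an unadjusted p under 0.05, and the 3 with the smallest p in each direction. The members and lists were chosen with earlier results of these data known. The fit was tested on simulated counts, drawn independently for each entry and library, with changes larger than any difference in this set. The simulation held no effect of the library letter and no reads shared between entries, so it does not bear on these.

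Alternatives were DESeq2 1.42.0 and edgeR 4.0.16 with TMM on recovered reads, scaling to the library or the tRNA total, a mean of at least 20 or no filter, pseudocounts of 0.5 and 5, array weights, the replicate number as a block, the library letter as a term, near-identical entries counted once, the highest entry or all listed entries of an anticodon, and each library left out in turn. The fit on G libraries only, and the values against either of its WT libraries alone, were chosen after seeing the data. Over 56 pairs of libraries of 1 group the lowest chi-square per degree of freedom was 43.5, so no pair looked like 1 library deposited more than once.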

Additional observations from a re-analysis of the deposited data

Results flagged for a closer look

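In each group of 8 libraries the gap between an extreme library and its neighbour was divided by the range of the group and compared with Dixon's 95% limit for 8 values. Of 68 groups of values examined, 4 exceeded it, where chance gives about 3.4. Tyr-GTA-6-1 in WT replicate 4 read 14087 normalized reads, against 8331 in the next WT library, a gap of 0.610 of the range. The summed tyrosine entries, which Tyr-GTA-6-1 dominates, read 15061 in the same library against 9435 in the next (0.568). Another tyrosine isodecoder, Tyr-GTA-1-4, stood apart in another library, WT replicate 8, with 231 against 90.0 (0.765). The summed Gln-TTG entries read 5493 in PS19 replicate 3 against 3523 in the next PS19 library (0.563).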

How the results depend on the processing

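The count of 1 of 75 entries with an unadjusted p under 0.05 was 0 with DESeq2, 0 with edgeR, 0 with the library letter as a term and 0 with G libraries only. It was 2 after scaling to the library total, 2 with a mean of at least 20, 2 without a filter (of 79 entries), 4 with array weights (2 higher, 2 lower), and 0 to 3 with 1 library left out (0 without PS19 replicates 1, 2 or 7, 2 or 3 without PS19 replicate 8 or WT replicates 1, 2 or 4). The remaining settings, apart from the replicate block, left the count at 1 but not always on the same entry. Trp-CCA-1-1 took the place of Tyr-GTA-6-1 in 4 (scaling to the tRNA total, and without PS19 replicates 5 or 6 or WT replicate 3) and Arg-CCG-3-1 in 3 (without PS19 replicate 3 or WT replicates 6 or 7). For the 12 anticodon sums, the count of 0 became 1 after scaling to the library total, 1 with a mean of at least 20, 1 with the highest entry of each anticodon, and 0 to 1 with 1 library left out (1 without PS19 replicate 8 or WT replicates 4 or 8). At an adjusted p under 0.05 both counts stayed at 0 in every setting. Over all tested entries DESeq2 called 15 at an adjusted p under 0.05 and every other setting 0, and between 2.01% and 6.96% had an unadjusted p under 0.05.

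With the replicate number as a block, 3 entries and 2 sums (tryptophan and tyrosine) had an unadjusted p under 0.05, all higher in PS19, against 6.96% of all tested entries. The labels do not say what, if anything, libraries of the same number share. Deviations of same-numbered libraries had r from 0.0446 to 0.456, above 0 in all 8 pairs and over 0.1 in 6. Of the 16 libraries, 4 correlated best with their own number. Whether same-numbered libraries share a factor was not tested, and the main fit has no term for it.

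Signs turned mainly where the log2 difference was near 0 or the library letter entered. With the letter as a term, and equally with G libraries only, since F and A hold WT libraries alone, the sums gave -0.076 for Arg-CCT, -0.096 for Gln-CTG, -0.14 for Gln-TTG, -0.032 for Pro-AGG, -0.045 for Pro-CGG, -0.038 for Pro-TGG, -0.12 for Trp-CCA and -0.014 for Tyr-GTA. The entries then gave -0.00050 for Arg-CCT-4-1, -0.087 for Gln-CTG-2-4, -0.15 for Gln-TTG-1-1, -0.032 for Pro-AGG-1-2, -0.044 for Pro-CGG-1-3, -0.014 for Pro-TGG-2-4, -0.011 for Trp-CCA-2-1, -0.019 for Trp-CCA-1-1 and -0.0084 for Tyr-GTA-6-1. DESeq2 gave -0.16 for the Arg-CCT sum, -0.035 for Gln-CTG and -0.036 for Gln-TTG, with -0.16 for Arg-CCT-4-1, -0.040 for Gln-CTG-2-4 and -0.0016 for Gln-TTG-1-1. edgeR gave -0.17, -0.048 and -0.048 for these sums and -0.18, -0.073 and -0.025 for these entries. Array weights gave -0.0055 for the Gln-CTG sum and -0.0047 for Gln-CTG-2-4.

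The values with G libraries rest on 2 WT libraries that lay far apart in many of the sums and entries, but not in all. They were close in Trp-CCA-1-1 (35.18 and 35.20), Arg-TCG-2-1 (36.1 and 35.2) and Arg-ACG-3-2 (45.6 and 50.3 in WT replicates 2 and 4). Against WT replicate 2 alone the sums that turned gave -0.097 for Arg-CCG, -0.74 for Arg-CCT, -0.28 for Gln-CTG, -0.44 for Gln-TTG, 0.36 for Phe-GAA, -0.69 for Pro-AGG, -0.70 for Pro-CGG, -0.74 for Pro-TGG and -0.055 for Trp-CCA. The entries that turned gave -0.68 for Arg-CCT-4-1, -0.28 for Gln-CTG-2-4, -0.53 for Gln-TTG-1-1, 0.38 for Phe-GAA-1-5, -0.69 for Pro-AGG-1-2, -0.70 for Pro-CGG-1-3, -0.66 for Pro-TGG-2-4 and -0.019 for Trp-CCA-1-1. Against WT replicate 4 alone those that turned gave -0.0015 for the Arg-ACG sum, -0.18 for Trp-CCA and -0.51 for Tyr-GTA, with -0.31 for Trp-CCA-2-1, -0.020 for Trp-CCA-1-1 and -0.53 for Tyr-GTA-6-1. The cause was not tested.

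With 1 library left out, ranges that crossed 0 were -0.15 to 0.24 for the Arg-CCT sum, -0.15 to 0.21 for Arg-CCT-4-1, -0.15 to 0.17 for the Gln-CTG sum, -0.15 to 0.16 for Gln-CTG-2-4, -0.12 to 0.15 for the Gln-TTG sum, -0.070 to 0.15 for Gln-TTG-1-1, -0.23 to 0.053 for the Phe-GAA sum and -0.22 to 0.053 for Phe-GAA-1-5. With 2 or more WT libraries, Arg-ACG, Arg-CCG and Arg-TCG kept their sign in every setting run, as sums and as named entries. Arg-CCG-3-1 ran from 0.35 to 0.54 with 1 library left out and passed an unadjusted p of 0.05 in 4 of 16 such fits, Trp-CCA-1-1 in 7 and Tyr-GTA-6-1 in 6. Outside those fits Arg-TCG-3-2 passed with array weights alone (-0.53). DESeq2, edgeR and scaling to the tRNA total left Tyr-GTA-6-1 without an unadjusted p under 0.05, at 0.42, 0.39 and 0.48 on the log2 scale. Entries under 50 normalized reads rest on few reads per library, and fits with G libraries only rest on 2 WT mice.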
